A study of Saccharomyces cerevisiae with 12 samples.

Results

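The 36 genes described here make, regulate, store and move ergosterol, the sterol of yeast membranes. They were chosen by name as a list and looked up in the probe set annotation of the arrays, and all 36 had a probe set assigned to them alone, out of 5656 genes with such a probe set. Of these 36 genes, 34 exceeded an intensity of 12 on at least 3 of the 12 arrays and were tested with the 5321 genes that did so. UPC2, for an activator of sterol genes, exceeded 12 on 1 array, with intensities from 4.8 to 12.4. HES1, for an oxysterol-binding protein, exceeded it on none, with intensities from 0.1 to 8.3.

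The study grew Saccharomyces cerevisiae in chemostats and hybridised total RNA to Affymetrix arrays, 3 arrays in each of 4 groups. The first group was the haploid, prototrophic strain CEN.PK540-3A, a MATa strain whose LEU3 reading frame is largely replaced by loxP-Kan-loxP, grown under nitrogen limitation. The second was CEN.PK113-7D, the haploid, prototrophic MATa LEU3 reference strain, under nitrogen limitation. The remaining groups were the deletion strain and the reference strain under carbon limitation. All cultures were aerated and kept at 30 °C, pH 5.0 and a dilution rate of 0.10 per hour. Nitrogen-limited medium held 1.0 g/l ammonium sulfate and glucose, fed at 53 g/l to the deletion strain and 59 g/l to the reference strain to leave about 17 g/l. Carbon-limited medium held 5.0 g/l ammonium sulfate and 6.0 g/l ethanol as the carbon source. Limiting nutrient and carbon source changed together, so their effects cannot be told apart. The labels number the arrays and do not say whether they came from separate cultures, so the p-values measure the spread between these samples, which may be technical. The deletion strain is a single strain.

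Ergosterol is built from acetyl-CoA. The mevalonate enzymes make the isoprenoid farnesyl diphosphate, which also feeds ubiquinone, dolichol, haem A and protein prenylation. Squalene and then lanosterol follow, and a chain of oxygen-dependent and haem-dependent late enzymes turns lanosterol into ergosterol, part of which is stored as steryl ester. Leu3 is a zinc cluster transcription factor known for controlling leucine and branched-chain amino acid synthesis.

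LEU3 served as the check of the strain labels. Its intensity was 0.3 to 0.6 on the 6 deletion arrays, against 110.4, 96.3 and 101.4 on nitrogen-limited and 76.7, 62.4 and 59.9 on carbon-limited reference arrays. Arrays of a group ranked genes alike, with Spearman coefficients of 0.962 to 0.993 over all genes in the 12 pairs. The 3′/5′ signal ratio of actin, which is higher when labelled transcripts are shorter, was 1.54 to 1.91 on deletion arrays. It was 2.45 to 3.29 on nitrogen-limited reference arrays, and 3.31, 9.27 and 13.98 on carbon-limited reference arrays 1, 2 and 3. The spread of the sterol genes was widest in that last group. Their median standard deviation (log2) was 0.10 in the nitrogen-limited deletion group, 0.15 in the nitrogen-limited reference group, 0.11 in the carbon-limited deletion group and 0.28 in the carbon-limited reference group. Values are linear intensities, and changes are log2 differences of group means with values below 12 set to 12, with their standard errors from limma. A gene passed at a Benjamini-Hochberg adjusted p under 0.05 over the 5321 genes.

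The question of the strain comparison is which sterol transcripts differ without Leu3. Under nitrogen limitation 3 of the 34 genes passed, or 8.82%, below the 22.2% of all genes tested. ERG12 and ARE1 were higher in the deletion strain, where 6.05% of all genes were, and HMG2 was lower, as were 16.1% of all genes. Arrays did not overlap for 9 sterol genes above the reference strain and 4 below it, against 13.9% and 29.8% of all genes. The genes' median change was 0.01, against -0.11 for all genes. With arrays centred on their median, 4 sterol genes were higher and 1 lower, against 538 and 485 of the 5321 genes. The median of all genes was then 0.04. Under carbon limitation 11 of 34 passed, or 32.35%, close to the 28.1% of all genes. In the deletion strain ERG10, ERG12, ERG8, MVD1, IDI1, ERG4, ARE1 and KES1 were higher and HMG2, ERG11 and ARV1 were lower. These are 8 higher and 3 lower, against 17.4% and 10.7% of all genes. Arrays did not overlap for 8 sterol genes above and 8 below, against 23.5% and 16.2% of all genes. The median change was 0.00, against 0.05 for all genes. With centred arrays 4 were higher and 8 lower, against 539 and 996 of the 5321 genes, and the median of all genes was -0.12. The carbon-limited comparison sets deletion arrays against reference arrays with the higher actin ratios. With the actin ratio as a term, none of the 34 genes passed in limma, 5 had an unadjusted p under 0.05, and 1.01% of all genes passed. The ratio was 1.54 to 1.91 on deletion arrays and 2.45 to 13.98 on reference arrays. Because these ranges do not overlap, the actin term cannot tell strain from actin ratio. A strain call lost with the term is therefore not shown to be wrong. Without carbon-limited reference arrays 2 and 3, ERG12 and ARE1 passed, and 6.35% of all genes did.

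**Figure D1:**
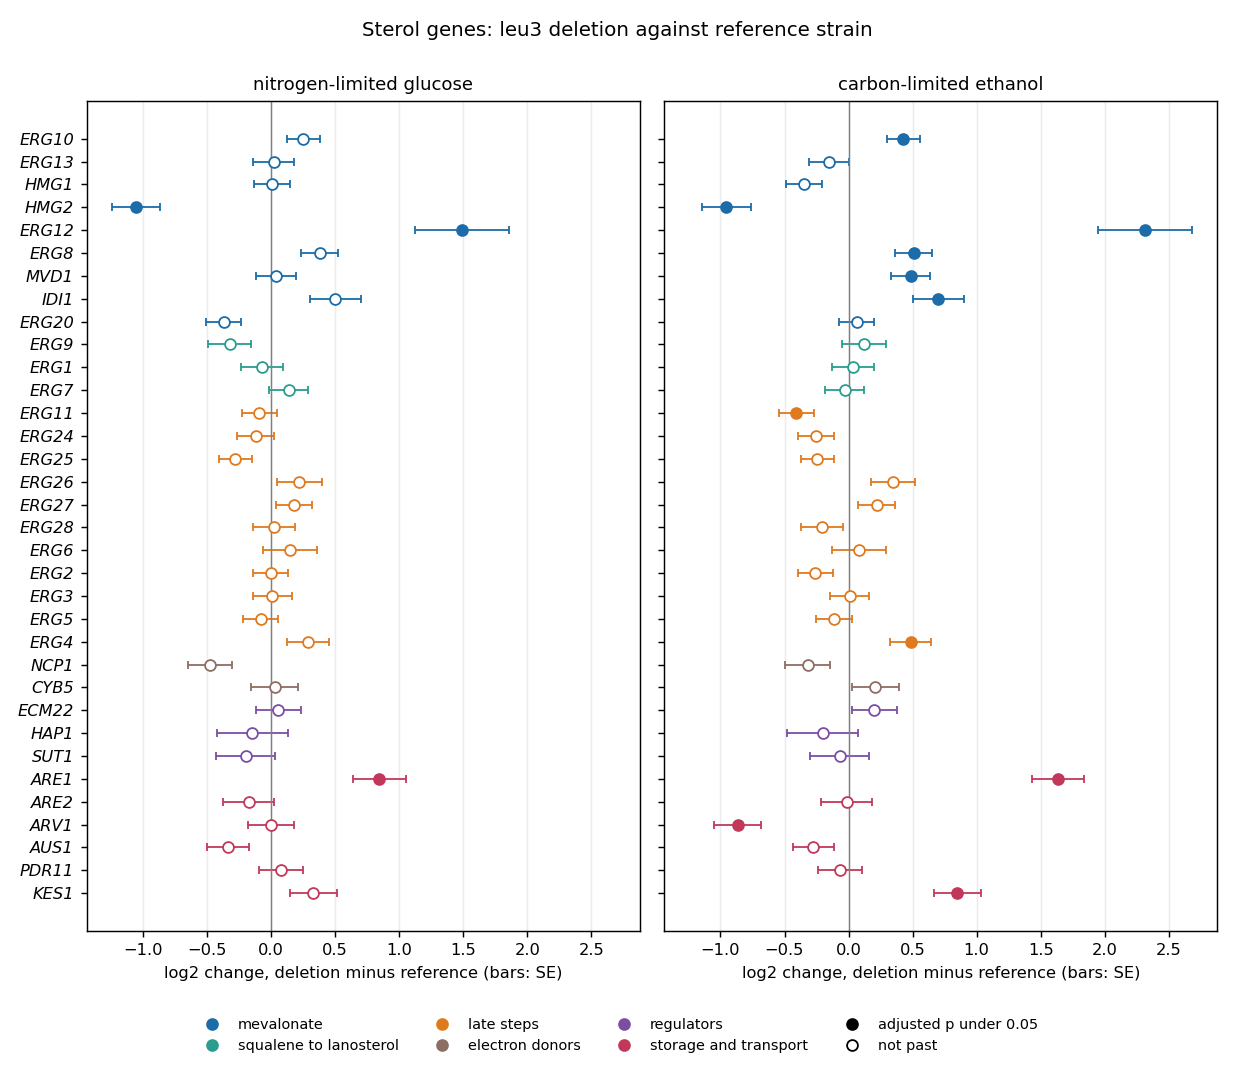
Log2 change of the 34 tested sterol genes, deletion minus reference, under nitrogen limitation (left) and carbon limitation (right). Points are differences of group means of 3 arrays with standard errors, coloured by role, filled where the adjusted p was under 0.05, and most open points lie near 0 while HMG2 (-1.06 and -0.95), ERG12 (1.49 and 2.32) and ARE1 (0.84 and 1.63) are filled on both sides.

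Of the 9 mevalonate genes, 1 rose and 1 fell in nitrogen-limited deletion cultures, or 22.22% against the 22.2% of all genes. In carbon-limited deletion cultures 5 rose and 1 fell, or 66.67% against 28.1% of all genes. Of these 6 carbon-limited calls, ERG12 passed without reference arrays 2 and 3, and none passed with the actin term.

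HMG2 encodes one of 2 isozymes of HMG-CoA reductase, the main regulated step of the pathway. HMG2 read 142.5, 157.5 and 155.0 on nitrogen-limited deletion arrays, against 363.2, 251.4 and 342.3 on reference arrays. Every deletion array lay below every reference array, and HMG2 fell by 1.06 ± 0.19 (SE) on the log2 scale, a 2.08-fold difference (limma, adjusted p = 0.0011). This call passed under all 23 other settings tried, with changes from -1.26 to -0.84. Under carbon limitation HMG2 read 239.6, 208.5 and 201.4 on deletion arrays, against 309.7, 470.4 and 502.4 on reference arrays. The arrays again did not overlap, and the change was -0.95 ± 0.19 (limma, adjusted p = 0.0025). The reference value was lowest on array 1, the one with the lowest actin ratio of its group. The carbon-limited change was -0.52 without arrays 2 and 3 and -0.26 with the actin term, and passed in neither.

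HMG1 encodes the other isozyme. It read 846.8, 816.7 and 898.3 on nitrogen-limited deletion arrays, against 871.5, 787.5 and 891.4 on reference arrays. These overlapped, and the change was 0.01 ± 0.14 (limma, adjusted p = 0.99). Under carbon limitation HMG1 read 1209.5, 1189.2 and 1017.0 on deletion arrays, against 1259.5, 1497.8 and 1592.5 on reference arrays. All deletion arrays were lower, but the change of -0.35 ± 0.14 did not pass (limma, adjusted p = 0.076). Within arrays, the log2 ratio of HMG2 to HMG1 was -2.57 to -2.37 in nitrogen-limited deletion arrays, against -1.65 to -1.26 in reference arrays. It was -2.51 to -2.34 in carbon-limited deletion arrays, against -2.02 to -1.66 in reference arrays. Averaged over both limitations, the strain change of HMG2 exceeded that of HMG1 in size, by -0.84 on the log2 scale. The exact two-sided permutation test of strain labels within limitation gave p = 0.005, the smallest its 400 arrangements allow. The limitations taken singly gave -1.06 and -0.61, each with an exact permutation p = 0.1, the smallest possible with 3 arrays against 3. Without carbon-limited reference arrays 2 and 3 the carbon-limited value was -0.37 and the average -0.72. This pair was compared with its values known.

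HMG2 lies beside LEU3 on chromosome XII. In the RefSeq annotation the order is RPL6B, FPR4, HMG2, LEU3, SST2 and RIF2, so HMG2 is the nearest gene on one side of the replaced reading frame and SST2 the nearest on the other. FPR4, for a nuclear peptidyl-prolyl isomerase, changed by 0.00 under nitrogen and -0.21 under carbon limitation and did not pass. SST2, for a regulator of pheromone G protein signalling, changed by -0.16 and 0.20 and did not pass. RPL6B, for a ribosomal protein, did not pass under nitrogen limitation with 0.21, and was lower under carbon limitation, with -0.75 (limma, adjusted p = 0.0016). RIF2 was not tested because of low values. Of the tested genes in this row, HMG2 and LEU3 were the ones called lower under nitrogen limitation. The other sterol genes on chromosome XII, which holds 6 of the 36, are ERG27, ERG3, ECM22, HAP1 and ARV1. With the probe sets used, none of these passed under nitrogen limitation, and ARV1 was lower under carbon limitation. Another probe set of HAP1, 10058_at, was lower under nitrogen limitation, with -0.96 (limma, adjusted p = 0.0031).

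**Figure D2:**
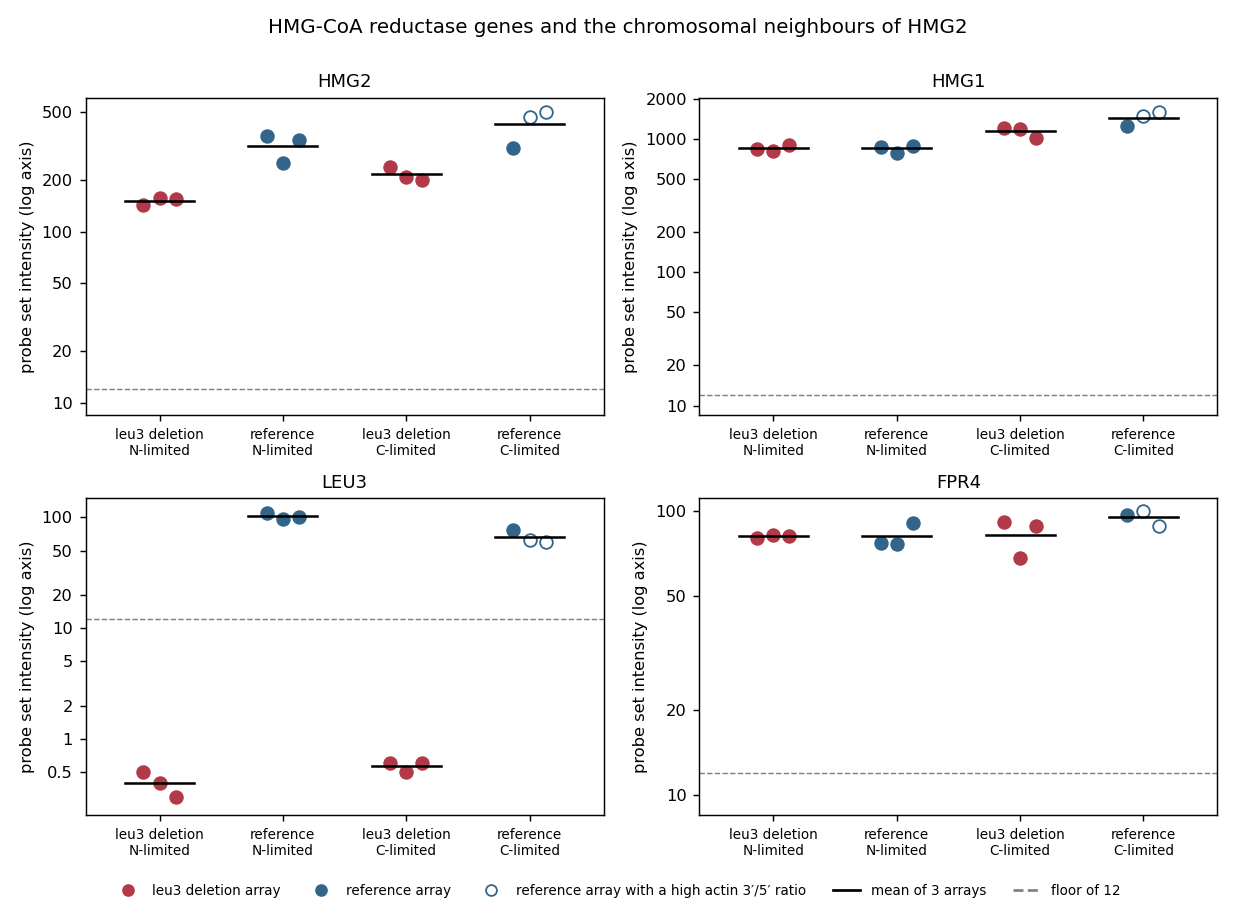
Intensity (log axis) of HMG2, HMG1, LEU3 and FPR4 on each of the 12 arrays, deletion groups in red and reference groups in blue, with bars at the mean of 3 arrays, open points for reference arrays 2 and 3 of the carbon-limited group and a dashed line at 12. HMG2 is lower on every deletion array than on the reference arrays of the same limitation, HMG1 overlaps under nitrogen limitation, LEU3 lies at 0.3 to 0.6 on deletion arrays, and FPR4 did not pass.

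ERG12 encodes mevalonate kinase and had the largest increase of the 34 genes in both strain comparisons, but its probe sets disagreed. The probe set used is 2758_s_at, whose mean log2 value was the highest. It read 210.2, 217.4 and 197.6 on nitrogen-limited deletion arrays, against 84.4, 81.0 and 59.6 on reference arrays. No arrays overlapped, and ERG12 rose by 1.49 ± 0.37 on the log2 scale (limma, adjusted p = 0.0092). Under carbon limitation the probe set read 120.6, 142.7 and 176.3 on deletion arrays, against 65.6, 14.4 and 26.0 on reference arrays. The change was 2.32 ± 0.37 (limma, adjusted p = 6.0e-04), and reference array 1 was well above its group's others. It was 1.14 without arrays 2 and 3, which passed, and 0.64 with the actin term, which did not. The nitrogen-limited change was 1.30 without reference arrays 2 and 3, which did not pass. Those arrays carried a signal of 3095 and 2748 for the bacterial ThrX control, at most 1.6 elsewhere.

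Probe set 2757_g_at gave ERG12 changes of 2.17 (limma, adjusted p = 1.1e-04) under nitrogen and 2.27 (limma, adjusted p = 1.5e-04) under carbon limitation. Probe set 9435_at gave ERG12 changes of -0.12 and -0.28, with limma adjusted p-values of 0.62 and 0.19. Its arrays averaged 94.9 in the deletion and 102.6 in the reference strain under nitrogen limitation, and 61.2 and 74.4 under carbon limitation. Probe set 2756_at gave 0.13 and 0.37 for ERG12 and passed in neither, with 6 of 12 arrays above 12. An increase of ERG12 in the deletion strain is therefore a statement about 2 of 4 probe sets. The other probe sets were compared after the values were seen.

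**Figure D3:**
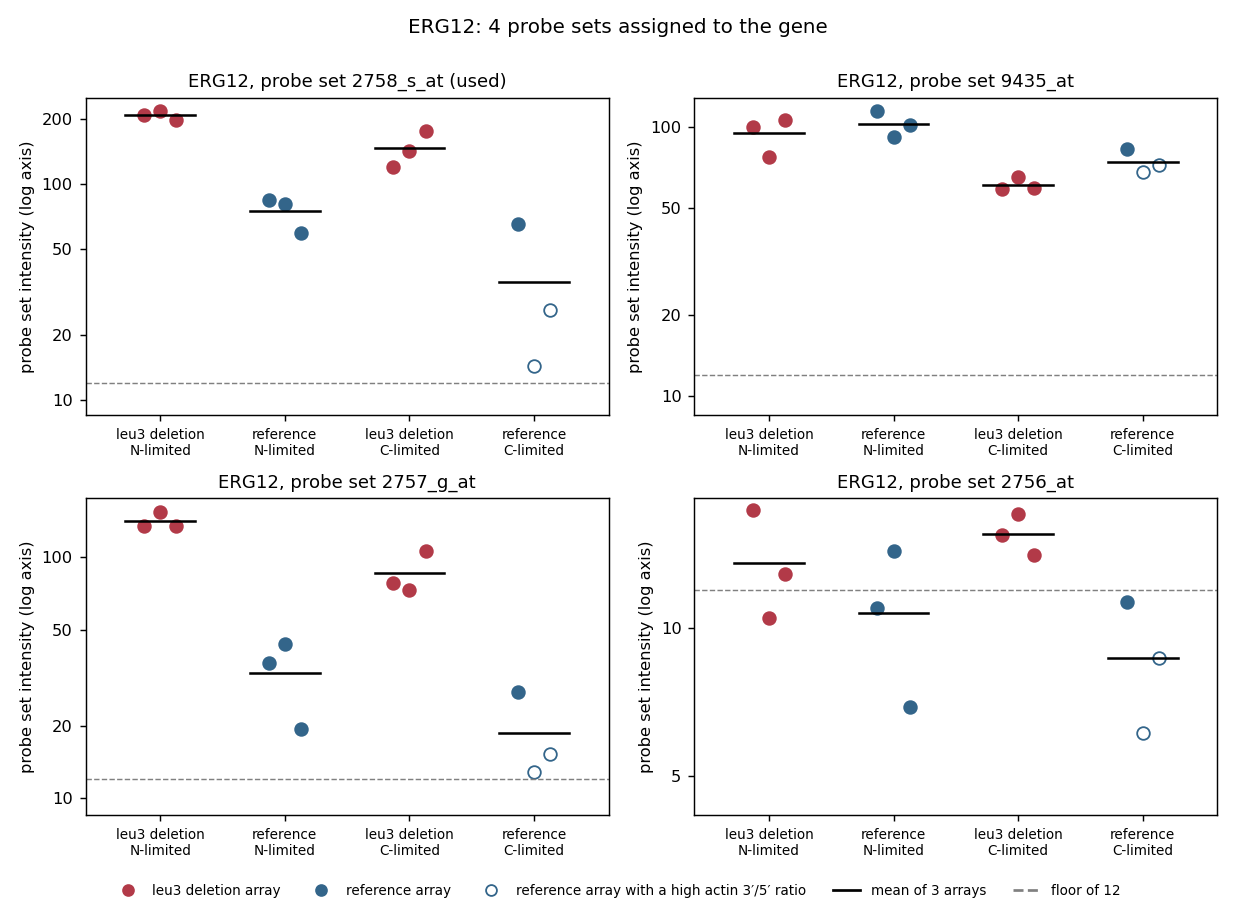
Intensity (log axis) on each of the 12 arrays for the 4 probe sets assigned to ERG12, deletion groups in red and reference groups in blue, with bars at the mean of 3 arrays, open points for carbon-limited reference arrays 2 and 3 and a dashed line at 12. Probe sets 2758_s_at and 2757_g_at are higher on all deletion arrays, and 9435_at averages 94.9 against 102.6 under nitrogen and 61.2 against 74.4 under carbon limitation.

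The other mevalonate genes changed less. ERG10 encodes acetoacetyl-CoA thiolase, the first step. ERG10 read 1603.0, 1435.0 and 1385.2 on carbon-limited deletion arrays, against 1032.3, 1091.4 and 1162.8 on reference arrays. It did not overlap and rose by 0.43 ± 0.13 on the log2 scale (limma, adjusted p = 0.024). Its change under nitrogen limitation, 0.25, did not pass, with 1177.8, 1206.9 and 1282.0 on deletion arrays and 948.5, 1103.2 and 1035.6 on reference arrays. ERG8, for phosphomevalonate kinase, read 516.2, 415.7 and 417.8 on carbon-limited deletion arrays, against 361.2, 293.8 and 294.0 on reference arrays. ERG8 rose by 0.51 ± 0.15 (limma, adjusted p = 0.018), with no overlap, and its nitrogen-limited change of 0.38 did not pass (limma, adjusted p = 0.077). The nitrogen-limited intensities of ERG8 were 544.1, 588.7 and 487.1 on deletion arrays, against 421.1, 399.7 and 423.1 on reference arrays.

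MVD1 encodes the decarboxylase that yields isopentenyl diphosphate. MVD1 read 708.5, 589.2 and 567.8 on carbon-limited deletion arrays, against 534.6, 366.3 and 442.7 on reference arrays. It rose by 0.48 ± 0.16 (limma, adjusted p = 0.031), and array 1 was the highest of its group in both strains. Under nitrogen limitation MVD1 overlapped, with 535.8, 525.1 and 495.5 on deletion arrays and 543.4, 469.1 and 507.3 on reference arrays. IDI1, for the isomerase that makes the allylic partner, read 322.9, 334.1 and 312.5 on carbon-limited deletion arrays, against 266.4, 150.6 and 195.4 on reference arrays. IDI1 rose by 0.70 ± 0.20 (limma, adjusted p = 0.018) without overlap. Its nitrogen-limited arrays, 395.2, 537.3 and 350.3 in the deletion strain against 264.5, 300.5 and 330.3 in the reference strain, did not overlap either, and the change of 0.50 did not pass (limma, adjusted p = 0.089). Each of these 4 carbon-limited calls was lost with the actin term, without reference arrays 2 and 3, and when at least 3 of the single arrays were left out in turn. ERG8, MVD1 and IDI1 then changed by 0.31, 0.21 and 0.28 without reference arrays 2 and 3, and ERG10 by 0.51.

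ERG13 and ERG20 did not pass in either strain comparison. ERG13, for HMG-CoA synthase, changed by 0.02 under nitrogen and -0.15 under carbon limitation. ERG20 encodes farnesyl diphosphate synthase. It read 273.5, 244.4 and 266.8 on nitrogen-limited deletion arrays, against 366.3, 314.1 and 334.5 on reference arrays. Every deletion array was lower, but the change of -0.37 ± 0.14 did not pass (limma, adjusted p = 0.063). Its carbon-limited change was 0.06.

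The enzymes from farnesyl diphosphate to lanosterol passed in neither strain comparison. ERG9, for squalene synthase, changed by -0.33 under nitrogen and 0.12 under carbon limitation. ERG1, for squalene epoxidase and a common antifungal target, changed by -0.07 and 0.04. ERG7, for lanosterol synthase, changed by 0.14 and -0.03.

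Of the 11 genes for late steps, 9 passed in neither strain comparison. Under nitrogen limitation 0% of the 11 passed, against 22.2% of all genes. Under carbon limitation 18.18% passed, against 28.1% of all genes. The changes of the 11 ran from -0.28 to 0.29 under nitrogen limitation and from -0.41 to 0.48 under carbon limitation. ERG11, the gene for the cytochrome P450 lanosterol demethylase that azole antifungals inhibit, read 1930.4, 1976.4 and 2077.8 on carbon-limited deletion arrays, against 2472.1, 3154.0 and 2375.5 on reference arrays. ERG11 fell by 0.41 ± 0.14 on the log2 scale (limma, adjusted p = 0.038), without overlap. Under nitrogen limitation it read 1722.3, 1808.0 and 1855.3 on deletion arrays, against 1822.7, 1996.0 and 1927.8 on reference arrays, and the change of -0.09 did not pass. ERG4 encodes the reductase of the last step. ERG4 read 886.7, 884.2 and 797.4 on carbon-limited deletion arrays, against 732.4, 466.3 and 669.4 on reference arrays, and rose by 0.48 ± 0.16 (limma, adjusted p = 0.037). Under nitrogen limitation its arrays did not overlap either, with 774.2, 736.6 and 670.5 in the deletion strain against 570.0, 630.9 and 584.9 in the reference strain, but the change of 0.29 did not pass. ERG11 passed in 10 and ERG4 in 11 of the 23 other settings. ERG11 changed by -0.31 and ERG4 by 0.22 without carbon-limited reference arrays 2 and 3, and neither passed.

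The remaining late genes passed in neither strain comparison. ERG3, for the C-5 desaturase, changed by 0.01 in both comparisons. ERG2, for the C-8 isomerase, changed by 0.00 under nitrogen and -0.26 under carbon limitation. ERG6, for the C-24 methyltransferase, changed by 0.15 and 0.08. ERG24, ERG28 and ERG5, for the C-14 reductase, the scaffold of the demethylating enzymes and the C-22 desaturase, passed in neither, and neither did ERG25, ERG26 and ERG27, which remove the C-4 methyl groups. NCP1, for the reductase that passes electrons to the P450 enzymes, changed by -0.48 under nitrogen and -0.32 under carbon limitation without passing. CYB5, for cytochrome b5, changed by 0.03 and 0.21.

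None of the 3 tested regulators passed in either strain comparison with the probe sets used. ECM22, for a sterol-responsive activator related to Upc2, changed by 0.06 under nitrogen and 0.20 under carbon limitation. SUT1, for a zinc cluster factor linked to sterol uptake, changed by -0.20 and -0.07. HAP1, for the haem-activated factor, changed by -0.15 and -0.20 on probe set 3270_f_at. Probe set 3493_f_at gave HAP1 changes of -0.23 and -0.32 and passed in neither. On nitrogen-limited deletion arrays 3270_f_at read 444.2, 211.0 and 464.3, and 3493_f_at read 279.7, 109.5 and 307.1. There 10058_at read 42.5, 37.9 and 39.7. Whether each of these probe sets measures HAP1 alone was not tested. Probe set 10058_at of HAP1 gave -0.96 under nitrogen limitation, which passed (limma, adjusted p = 0.0031), and -0.47 under carbon limitation, which did not (limma, adjusted p = 0.091). On this probe set HAP1 averaged 40.0 in the deletion and 80.6 in the reference strain under nitrogen limitation.

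ARE1 and ARE2 encode the sterol acyltransferases that make steryl esters. ARE1 read 123.1, 175.7 and 125.2 on nitrogen-limited deletion arrays, against 81.7, 70.8 and 80.8 on reference arrays. ARE1 rose by 0.84 ± 0.20 on the log2 scale, 1.80-fold, without overlap (limma, adjusted p = 0.0084). Under carbon limitation ARE1 read 195.6, 162.1 and 225.6 on deletion arrays, against 75.3, 70.7 and 45.0 on reference arrays. It rose by 1.63 ± 0.20, 3.10-fold, again without overlap (limma, adjusted p = 1.3e-04). The nitrogen-limited change of ARE1 was 0.64 with the actin term, which passed, and 0.77 without reference arrays 2 and 3, which did not. The carbon-limited change was 1.36 without reference arrays 2 and 3, which passed, and 0.98 with the actin term, which did not. ARE2 was above 12 on 4 arrays, at 15.3, 21.9, 12.1 and 12.4, and passed in no comparison.

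KES1 encodes an oxysterol-binding protein. KES1 read 163.5, 170.8 and 205.2 on carbon-limited deletion arrays, against 131.5, 91.1 and 81.9 on reference arrays. It rose by 0.85 ± 0.18, 1.80-fold, without overlap (limma, adjusted p = 0.0039), and reference array 1 was the closest to the deletion arrays. Without reference arrays 2 and 3 the change was 0.44 and with the actin term 0.10, and neither passed. Under nitrogen limitation KES1 read 222.4, 229.4 and 214.7 on deletion arrays, against 178.5, 208.9 and 148.5 on reference arrays, and the change of 0.33 did not pass (limma, adjusted p = 0.22).

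ARV1, whose product is needed for sterol distribution between membranes, was close to the lower limit of measurement. ARV1 read 10.5, 11.7 and 12.7 on carbon-limited deletion arrays, against 18.8, 19.2 and 30.6 on reference arrays. Of the 3 deletion values 2 lay under 12, and the change of -0.86 ± 0.18 passed (limma, adjusted p = 0.0035). Under nitrogen limitation ARV1 read 22.9, 21.7 and 24.2 on deletion arrays, against 19.1, 24.4 and 25.9 on reference arrays, a change of 0.00. The difference between these strain changes, nitrogen minus carbon, was 0.86 ± 0.26 (limma, adjusted p = 0.031). ARV1 was the 1 sterol gene of 34 to pass in this interaction, 2.94%, against 18.3% of all genes in either direction and 5.24% in its direction. The median of this difference was -0.10 for the sterol genes and -0.20 for all genes. With a floor of 24, the interaction of ARV1 was 0.08, and it did not pass without carbon-limited reference arrays 2 and 3, where it was 0.62, or with the actin term, where it was 0.45.

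**Figure D4:**
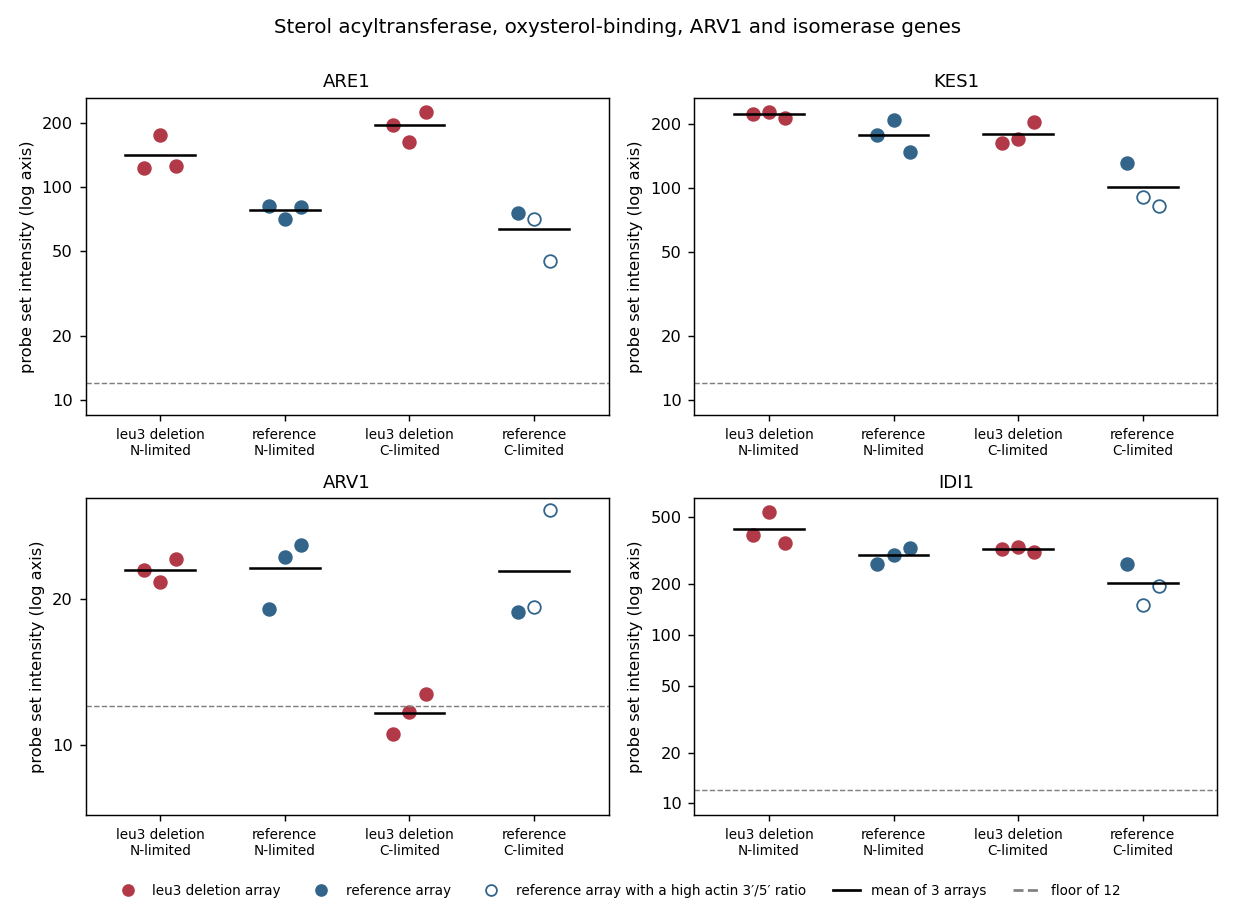
Intensity (log axis) of ARE1, KES1, ARV1 and IDI1 on each of the 12 arrays, deletion groups in red and reference groups in blue, with bars at the mean of 3 arrays, open points for carbon-limited reference arrays 2 and 3 and a dashed line at 12. ARE1 is higher on all deletion arrays, and ARV1 lies at 10.5 to 12.7 on carbon-limited deletion arrays, where the other groups read 18.8 to 30.6.

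AUS1 and PDR11 encode the transporters that take up sterol when none can be made. PDR11 changed by 0.08 under nitrogen and -0.07 under carbon limitation. AUS1 changed by -0.33 and -0.28 on probe set 8528_at, the one above 12 on all arrays, and did not pass. Probe set 2630_s_at of AUS1 gave 0.50 (limma, adjusted p = 0.035) and 1.33 (limma, adjusted p = 1.0e-04), the opposite direction, with 7 of 12 arrays above 12. Probe set 2631_s_at gave 0.13, which did not pass, and 0.51 (limma, adjusted p = 0.026), also with 7 of 12 arrays above 12. Probe set 2627_at gave 0.24 and 0.30 and passed in neither, with 6 of 12 arrays above 12.

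The limitation comparison asks which sterol transcripts differ between nitrogen-limited growth on glucose and carbon-limited growth on ethanol. In the deletion strain 10 of 34 genes passed, 4 higher and 6 lower under nitrogen limitation, or 29.41% against 35.8% of all genes, of which 18.1% were higher and 17.8% lower. Arrays did not overlap for 9 sterol genes above and 11 below, against 27.8% and 26.2% of all genes, and the median change was 0.10, against 0.02. The split was 5 higher and 4 lower with centred arrays, against 1075 and 863 of all genes. It was 7 and 3 with quantile normalization, against 1066 and 870 of all genes. In the reference strain 15 of 34 passed, 9 higher and 6 lower, or 44.12% against 47.6% of all genes, of which 32.6% were higher and 14.9% lower. Arrays did not overlap for 9 above and 6 below, against 34% and 16.4% of all genes, and the median change was 0.07, against 0.19. With centred arrays 4 were higher and 11 lower, against 951 and 1370 of all genes, and the median of all genes was -0.07. ERG20 and ERG26 were higher under nitrogen limitation in both strains, and HMG1, ERG25, ERG6, SUT1 and AUS1 were lower in both. The deletion arrays of both limitations had actin ratios of 1.54 to 1.91, a range in which the actin term hardly moves this comparison. Of the 15 in the reference strain, ERG20, ERG6 and SUT1 passed with it, and ERG20, HMG1, ERG6 and SUT1 passed without carbon-limited reference arrays 2 and 3. The strain and limitation comparisons share arrays.

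**Figure D5:**
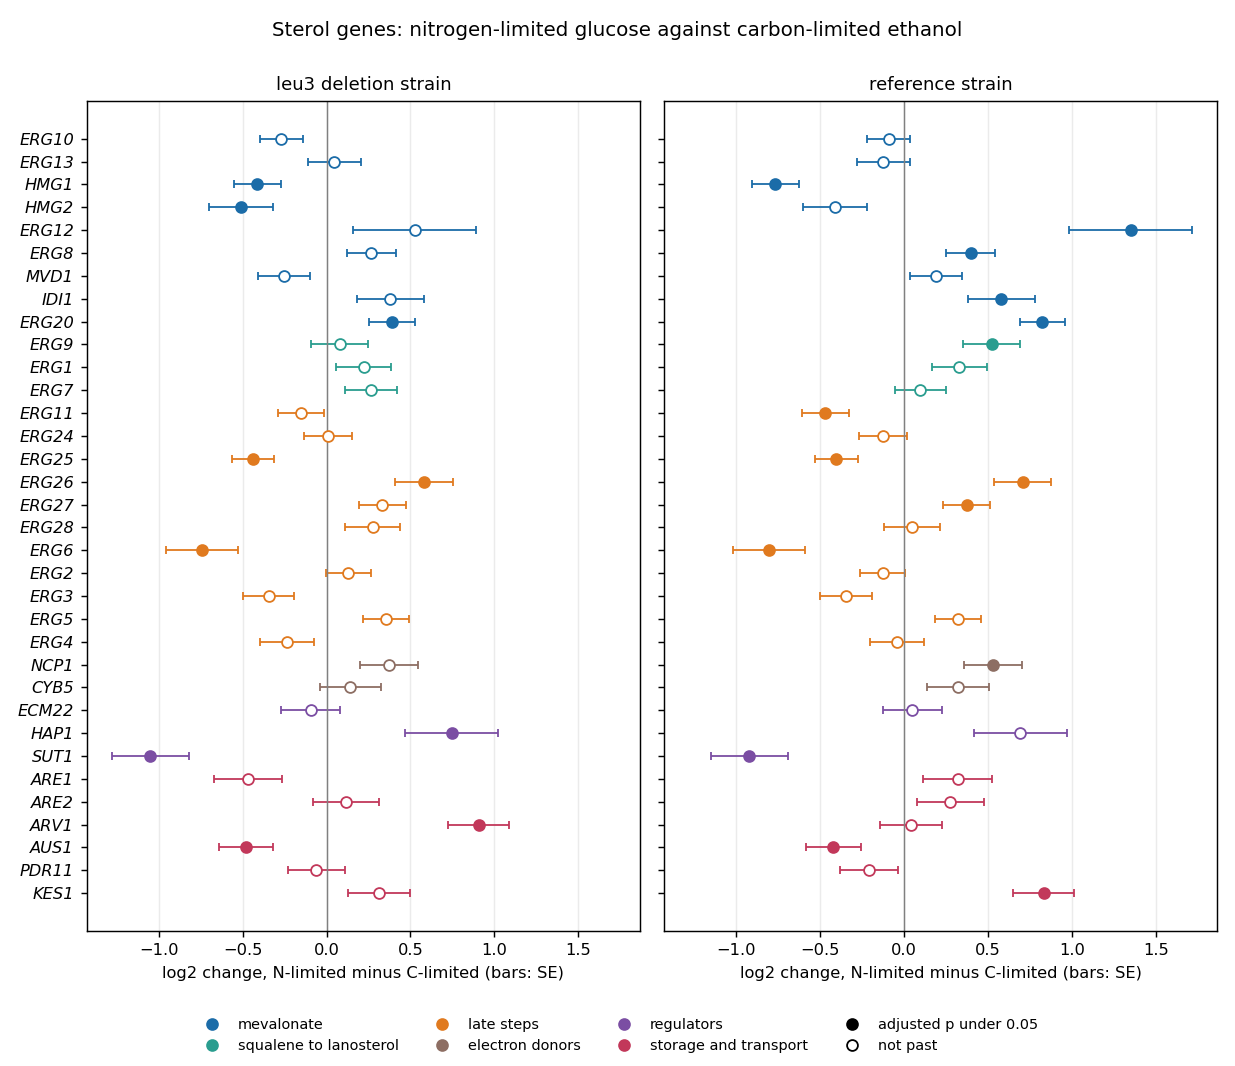
Log2 change of the 34 tested sterol genes, nitrogen-limited glucose minus carbon-limited ethanol, in the deletion strain (left) and the reference strain (right). Points are differences of group means of 3 arrays with standard errors, coloured by role, filled where the adjusted p was under 0.05, and SUT1 (-1.05 and -0.92) and ERG6 (-0.74 and -0.81) lie to the left on both sides while ERG20 (0.39 and 0.82) and ERG26 (0.58 and 0.71) lie to the right.

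SUT1 had the largest decrease of the 34 genes under nitrogen limitation in both strains. SUT1 read 15.2, 16.5 and 22.2 on nitrogen-limited deletion arrays, against 36.3, 41.5 and 32.8 on carbon-limited ones, and fell by 1.05 ± 0.23 on the log2 scale (limma, adjusted p = 0.0022). In the reference strain it read 17.3, 24.7 and 19.7 under nitrogen limitation, against 54.6, 38.9 and 26.9 under carbon limitation, and fell by 0.92 ± 0.23 (limma, adjusted p = 0.0042). No arrays overlapped in either strain, though SUT1 was not far above 12 under nitrogen limitation.

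ERG6 read 916.7, 1090.3 and 959.5 on nitrogen-limited deletion arrays, against 1631.2, 1661.6 and 1651.2 on carbon-limited ones. The change was -0.74 ± 0.21 (limma, adjusted p = 0.013). In the reference strain ERG6 read 917.4, 757.4 and 1017.9 under nitrogen limitation, against 2118.6, 1738.4 and 1024.2 under carbon limitation, a change of -0.81 ± 0.21 (limma, adjusted p = 0.0061). Carbon-limited reference array 3, which had the highest actin ratio, was the lowest of its group and close to the nitrogen-limited arrays. HMG1, whose arrays are given above, was lower under nitrogen limitation by -0.41 ± 0.14 in the deletion strain (limma, adjusted p = 0.031) and -0.77 ± 0.14 in the reference strain (limma, adjusted p = 4.2e-04). HMG2 changed by -0.51 in the deletion strain, which passed (limma, adjusted p = 0.047), and by -0.41 in the reference strain, which did not (limma, adjusted p = 0.087). The HMG2 call passed in 10 of the 23 other settings. ERG25, for the C-4 methyl sterol oxidase, changed by -0.44 in the deletion and -0.40 in the reference strain, and AUS1 by -0.48 and -0.42. ERG11 was lower in the reference strain, with -0.47 (limma, adjusted p = 0.012), and did not pass in the deletion strain, with -0.15.

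ERG20 was higher under nitrogen limitation. In the deletion strain it read 273.5, 244.4 and 266.8 under nitrogen limitation, against 214.1, 186.0 and 198.5 under carbon limitation, a change of 0.39 ± 0.14 (limma, adjusted p = 0.035). In the reference strain ERG20 read 366.3, 314.1 and 334.5, against 182.6, 177.5 and 213.7, a change of 0.82 ± 0.14 (limma, adjusted p = 1.7e-04). The arrays did not overlap in either strain, and the difference of the changes, -0.43, did not pass (limma, adjusted p = 0.13). ERG26, for the C-3 sterol dehydrogenase, read 569.9, 542.4 and 542.6 on nitrogen-limited deletion arrays, against 337.3, 370.6 and 400.5 on carbon-limited ones, a change of 0.58 ± 0.17 (limma, adjusted p = 0.016). In the reference strain ERG26 read 403.9, 509.2 and 515.4, against 382.8, 260.8 and 244.3, a change of 0.71 ± 0.17 (limma, adjusted p = 0.0036). That change was 0.31 without carbon-limited reference arrays 2 and 3 and did not pass.

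ERG12, ERG8, IDI1, ERG9, ERG27, NCP1 and KES1 passed as higher under nitrogen limitation in the reference strain alone, with changes of 1.35, 0.40, 0.58, 0.52, 0.37, 0.53 and 0.83. Their changes in the deletion strain, none of which passed, were 0.52, 0.27, 0.38, 0.08, 0.33, 0.37 and 0.31, all with the same sign, and none of these 7 passed in the test of the difference. None of the 7 reference-strain calls passed with the actin term, where the change was larger than without it for NCP1 (0.54) and ERG27 (0.47) and smaller for the others. ERG12 was 0.18 without carbon-limited reference arrays 2 and 3. Its probe set 9435_at gave 0.62 (limma, adjusted p = 0.0054) in the deletion and 0.46 (limma, adjusted p = 0.023) in the reference strain. HAP1 was higher in the deletion strain, with 0.75 (limma, adjusted p = 0.047), and its 0.69 in the reference strain did not pass (limma, adjusted p = 0.0504). The HAP1 arrays of the deletion strain overlapped, and its call passed in 6 of the 23 other settings. It did not pass without carbon-limited reference arrays 2 and 3, or without nitrogen-limited reference arrays 2 and 3. On probe set 10058_at the change of HAP1 in the deletion strain was -0.42 and did not pass. ARV1 was higher under nitrogen limitation in the deletion strain, with 0.91 ± 0.18 (limma, adjusted p = 0.0012), and changed by 0.04 in the reference strain.

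Genes that share the pathway's precursors or handle its product were counted from lists. Among 5 genes for steryl ester hydrolysis and sterol acetylation, none passed in the strain comparison under nitrogen limitation, and under carbon limitation TGL1, a steryl ester hydrolase gene, was higher by 0.49 and SAY1, for a sterol deacetylase, was lower with -0.53, together 40% of the list against 28.1% of all genes. Neither passed with the actin term (0.51 and -0.26) or without carbon-limited reference arrays 2 and 3 (0.56 and -0.29). The list's median changes were -0.02 under nitrogen and 0.10 under carbon limitation, where all genes had -0.11 and 0.05. Across limitations 40% of the 5 genes passed in the deletion strain, against 35.8% of all genes. In the reference strain 80% passed, 3 higher and 1 lower under nitrogen limitation, against 47.6% of all genes. The hydrolase genes YEH1 and YEH2 were higher under nitrogen limitation in both strains. YEH1 changed by 0.93 in the deletion and 0.84 in the reference strain, and YEH2 by 0.91 and 0.77. TGL1 was higher by 0.71 in the reference strain, and SAY1 was lower there with -0.51. With the actin term YEH2 and TGL1 passed in the reference strain, and YEH1 (0.38) and SAY1 (-0.31) did not.

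Among 13 genes for sterol transfer proteins, with median strain changes of -0.33 under nitrogen and -0.06 under carbon limitation, the nitrogen-limited deletion strain had no higher and 3 lower genes, SIP3 with -0.78, LAM4 with -0.66 and NCR1 with -0.52, or 23.08% against 22.2% of all genes. LAM4 (-0.68) and NCR1 (-0.47) did not pass with the actin term, and LAM4 (-0.84) did not pass without nitrogen-limited reference arrays 2 and 3. Under carbon limitation NPC2 with 0.71 and LAM6 with 0.61 were higher and LAM1 with -0.71 and NCR1 with -0.57 were lower, in all 30.77% of the list against 28.1% of all genes. None of these 4 passed with the actin term, where NPC2 was 0.25. Without carbon-limited reference arrays 2 and 3 LAM6 passed, and NPC2, at 0.42, LAM1 and NCR1 did not. SIP3 read 36.9, 30.5 and 39.6 on nitrogen-limited deletion arrays, against 63.9, 60.2 and 58.2 on reference arrays, without overlap. Its call passed under all 23 other settings. NCR1 with the mean of all its probe sets gave 0.05 and 0.23. Across limitations, the deletion strain had 1 higher and 3 lower of these 13 genes, or 30.77% against 35.8% of all genes. The reference strain had 3 higher and none lower, or 23.08% against 47.6% of all genes, of which 32.6% were higher. With the actin term the reference-strain calls of OSH2 (0.60) and SIP3 (0.53) did not pass, and that of YSP2 (1.25) did. YSP2 was higher under nitrogen limitation in both strains, with 0.77 in the deletion and 0.80 in the reference strain.

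Among 9 tested genes of other isoprenoid branches, which draw on the same precursors, NUS1, for a subunit of the dolichol-forming prenyltransferase, was lower in the deletion strain under nitrogen limitation with -0.59, and passed neither with the actin term nor without nitrogen-limited reference arrays 2 and 3. The list's median strain changes were -0.17 under nitrogen and 0.33 under carbon limitation. Under carbon limitation 3 were higher and none lower, MOD5 for tRNA isopentenylation with 0.77, RER2 for dolichol synthesis with 0.61 and COQ1 for the ubiquinone tail with 0.54, or 33.33% against 28.1% of all genes, of which 17.4% were higher. None of these 3 passed with the actin term or without carbon-limited reference arrays 2 and 3. Across limitations the deletion strain had none higher and 1 lower of these genes, or 11.11% against 35.8% of all genes. The reference strain had 5 higher and none lower, COQ1 with 0.73 among them. That was 55.56% against 47.6% of all genes, of which 32.6% were higher. With the actin term COQ1 (0.65) and COQ2 (0.97) passed there, and MOD5 (0.32), RER2 (0.71) and RAM2 (0.32) did not. Among 9 genes for regulators of sterol enzymes none passed in the strain comparison under nitrogen limitation, and NSG2 with 0.50 was higher and MGA2 with -0.99 lower under carbon limitation, 22.22% of the list against 28.1% of all genes. Neither NSG2 nor MGA2 passed with the actin term (0.12 and -0.68) or without carbon-limited reference arrays 2 and 3 (0.25 and -0.88). Their median strain changes were -0.24 and 0.00. Across limitations the deletion strain had 1 higher and 1 lower of these 9 regulator genes, or 22.22% against 35.8% of all genes. The reference strain had 2 higher and 2 lower, or 44.44% against 47.6% of all genes. NSG1, whose product stabilises Hmg2, was higher under nitrogen limitation in both strains, with 0.92 in the deletion and 0.89 in the reference strain. DAP1, for a haem protein that supports the P450 enzymes, was lower in both, with -0.84 and -0.72. The reference-strain calls of NSG1 (0.59) and DAP1 (-0.61) did not pass with the actin term.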

How the data were processed

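Total RNA from 12 samples was read on 1-colour Affymetrix arrays, and samples were grouped by title. The deposited values are linear intensity per probe set, scaled to a common 2% trimmed mean of 150.1 per array, as read from the values. Software with its background treatment was not given in the sources used here. Of 9335 probe sets, 6504 matched 1 gene, 328 several and 2503 none in the annotation used. The probe set with the highest mean log2 value stood for a gene. Values below 12 were set to 12, log2 was taken from the deposited intensities, and genes above 12 on at least 3 arrays were tested. One model with 4 group means (8 residual degrees of freedom) was fitted in limma 3.58.1 under R 4.3.3, with Benjamini-Hochberg adjustment over 5321 genes. On simulated data for the nitrogen-limited strain comparison (5321 genes, 200 changed) 92% of the 2-fold changes were recovered. With 3 arrays per group, their number limits the precision. Members, lists and tests were chosen with earlier results of these data known. Array values are given for HMG1, HMG2, every gene past the threshold in a strain effect or the interaction, and the 8 largest limitation effects in the reference strain; up to 4 genes with the largest change past the threshold are named per related list. Gene order comes from RefSeq, and promoters were not analysed here. Alternatives covered the floor, filter, scaling, probe sets, actin ratio, replicate block and arrays left out.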

Additional observations from a re-analysis of the deposited data

Results flagged for a closer look

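The strain change of ARV1 differed between the limitations: nitrogen minus carbon it was 0.86 on the log2 scale in the interaction test, from intensities of 10.5 to 12.7 on carbon-limited deletion arrays and 18.8 to 30.6 on carbon-limited reference arrays. It passed in 12 of the 22 other settings.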

How the results depend on the processing

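Counts of sterol genes past the threshold are given as totals. Under nitrogen limitation the strain comparison called 3. It called 7 with a floor of 24 (20.1% of all genes), 7 without a filter (19.7%) and 5 with arrays centred on their median (19.2%). With quantile normalization it called 5 (19.9% of all genes), and with only the groups compared 5 (23.7%). With single arrays left out it called 3 to 4. Under carbon limitation it called 11, and 5 with only the groups compared, 0 with the actin term, 2 without carbon-limited reference arrays 2 and 3, and 5 to 13 with single arrays left out, 5 without deletion array 1, 6 without deletion array 2 and 5 without reference array 2. The interaction called 1, and 3 with centring, and 0 without a filter, with the actin term, and without those reference arrays (6, 2 and 3 genes with an unadjusted p under 0.05), and 0 to 6 with single arrays left out, the 6 without carbon-limited reference array 1, 2 without nitrogen-limited deletion array 2, and 0 without nitrogen-limited deletion array 1 or 3, nitrogen-limited reference array 1 or any carbon-limited deletion array. The limitation comparison called 10 in the deletion strain, and 4 to 13 with single arrays left out, 4 and 5 without nitrogen-limited deletion arrays 1 and 3, and 6 without each of its carbon-limited arrays in turn. In the reference strain it called 15, and 7 with only the groups compared, 4 with the actin term, 5 without carbon-limited reference arrays 2 and 3, 6 without nitrogen-limited reference arrays 2 and 3, and 8 to 17 with single arrays left out, 9 without nitrogen-limited array 3 and 8 without carbon-limited array 2.

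With the replicate block the comparisons, in the order above, called 3, 9, 1, 7 and 13 sterol genes, against 19.6%, 25.5%, 16.1%, 33.6% and 45.5% of all genes. With single arrays left out, the shares of all genes were 14.9% to 26.1%, 18.9% to 34.8%, 12.3% to 26.5%, 27% to 39.4% and 40.4% to 51%. In the interaction 16.1% of all genes passed with centring and 15.2% without a filter. Deviations of same-numbered arrays correlated at -0.31 to 0.16 over 18 pairs, 2 of them above 0.1, and an array correlated best with its own number in 4 of 36 cases, so the numbers were not taken as pairs.

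Some values changed sign, and they are listed where the main or the alternative value passed. In the strain comparisons ERG12 was -0.12 and -0.28 with probe set 9435_at, and NCR1 was 0.049 and 0.23 with the mean of its probe sets. AUS1 was 0.50 and 1.33 there with probe set 2630_s_at. Under carbon limitation AUS1 was also 0.51 with 2631_s_at and 0.35 with the mean of its probe sets. In the limitation comparison HAP1 was -0.42 with 10058_at in the deletion strain. In the reference strain AUS1 was 0.0079 with 2630_s_at and ERG25 was 0.0351 with quantile normalization. The cause of these changes was not tested. Over all genes, the nitrogen-limited strain comparison called 1181, and 715 with nitrogen-limited reference arrays 2 and 3 left out. The carbon-limited one called 1494, and 805 with only the groups compared, 54 with the actin term and 338 without carbon-limited reference arrays 2 and 3. The interaction called 976, and 417 with the actin term, 634 without those carbon-limited and 504 without those nitrogen-limited arrays. The limitation comparison in the reference strain called 2532, and 1289, 1556 and 1513 under the same alternatives. Centring changed the split of all genes to 538 higher and 485 lower (322 and 859 uncentred) under nitrogen limitation, and to 539 and 996 (926 and 568) under carbon limitation. It gave 614 and 241 (279 and 697) in the interaction and 951 and 1370 (1737 and 795) in the reference-strain limitation comparison. Low signal limits ARV1, ARE2, UPC2 and HES1.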

Other observations

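Haem is a cofactor of the P450 enzymes encoded by ERG11 and ERG5, and the haem synthesis genes were counted as a list of 8, with median strain changes of -0.28 under nitrogen and -0.21 under carbon limitation. In the deletion strain 2 were lower under nitrogen limitation, HEM13 with -0.50 and HEM12 with -0.41, or 25% against 22.2% of all genes. HEM13 passed in 7 and HEM12 in 9 of the 23 other settings, and neither passed with the actin term or without nitrogen-limited reference arrays 2 and 3. Under carbon limitation HEM2, for porphobilinogen synthase, was higher with 1.04 ± 0.17 (limma, adjusted p = 6.8e-04). HEM12, for uroporphyrinogen decarboxylase, was lower with -1.04 ± 0.13 (limma, adjusted p = 1.4e-04), and HEM1, for the first enzyme, was lower with -0.75 ± 0.19 (limma, adjusted p = 0.0085). HEM12 read 150.5, 148.2 and 144.4 on carbon-limited deletion arrays, against 280.4, 345.2 and 291.0 on reference arrays, without overlap. HEM1 passed with the actin term (-1.40), HEM12 did not (-0.98), and both passed without carbon-limited reference arrays 2 and 3. HEM2 was 0.78 without those arrays and 0.59 with the actin term and passed in neither.

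Cell wall genes that Upc2 is known to activate in cells without oxygen were counted as a list of 8, of which 6 were tested, with median strain changes of -0.08 and -0.18. DAN4 was lower in the deletion strain under nitrogen limitation with -0.91, in all 23 other settings, at 46.6, 72.1 and 64.6 on deletion arrays against 135.6, 83.7 and 126.3 on reference arrays. TIR1 was lower under carbon limitation with -0.89 and did not pass with the actin term (-0.66) or without carbon-limited reference arrays 2 and 3 (-0.67). Across limitations 4 of the 6 were lower under nitrogen limitation in each strain, against 17.8% of all genes in the deletion and 14.9% in the reference strain. None of the 4 reference-strain calls passed with the actin term. TIR3 changed by -0.81 in the deletion and -1.07 in the reference strain, and TIR4 by -0.70 and -0.43.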
